A study of Mus musculus with 12 samples.

Results

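The BCL2 family of apoptosis regulators was examined in mouse kidney RNA-seq counts, over 10 genes chosen by name: the anti-apoptotic Bcl2, Bcl2l1 and Mcl1, the pore-forming effectors Bax and Bak1, and the BH3-only genes Bbc3, Pmaip1, Bcl2l11, Bid and Bik. All 10 were found among the 55487 genes of the table, and all 10 had enough counts to be tested in every comparison. The 12 libraries formed 4 groups of 3: Ctrl (ALR flox/flox mice, sham surgery), Ctrl+I/R (ALR flox/flox, 22 min of bilateral renal ischemia and 24 h of reperfusion), PT-KO (ALR flox/flox with Ggt1-Cre, sham) and PT-KO+I/R (ALR flox/flox with Ggt1-Cre, the same ischemia and reperfusion). Ctrl+I/R and PT-KO+I/R are also called injured controls and injured knockouts, and PT-KO sham knockouts. All mice were on a mixed C57BL/6 background and 6 to 8 weeks old, and the floxed allele was carried by the controls too, although the labels call them WT. ALR is the protein of Gfer, a sulfhydryl oxidase of the mitochondrial intermembrane space. The study used Ggt1-Cre to remove its floxed stretch in proximal tubule cells. By that design other cells of the kidney cortex keep the gene.

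BCL2 proteins decide whether the outer mitochondrial membrane stays closed. Bax and Bak1 open pores through which cytochrome c leaves for the cytosol, where it starts caspase activation; BCL-2, BCL-xL (encoded by Bcl2l1) and MCL-1 bind and restrain them, and BH3-only proteins such as PUMA (Bbc3), NOXA (Pmaip1), BIM (Bcl2l11), BID and BIK release or activate the effectors. In the ischemic kidney the proximal tubule is the segment best known for cell death after reperfusion, and these genes are often measured there.

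Library totals ran from 12165089 to 23123693 counts. The counts do not show the labelled deletion: Gfer was at 12.7, 11.4 and 14.4 CPM (counts scaled to a common library size) in Ctrl and at 9.97, 17.1 and 15.03 in PT-KO, with an edgeR adjusted p of 0.761, and counts summed over the gene include exons outside the floxed stretch. PT-KO and PT-KO+I/R therefore mean the libraries labelled so. Xist had 22402 and 19755 counts in Ctrl libraries 1 and 2, which had 0 counts of 4 Y-linked genes, against at most 11 counts of Xist in the other 10 libraries, so every comparison with Ctrl also compares 2 female libraries and 1 male library with 3 male ones. Ctrl library 3 was placed by its column name, since the control titles are numbered 1, 2 and 4. The proximal tubule stamp of the tissue was present, with the summed level of 10 markers between 14064 and 16777 CPM in the sham groups. The labels do not tie libraries to animals, although the study speaks of separate mice, so p-values measure the spread between these libraries.

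The stretches just upstream of 3 start sites are shown because Bcl2l1, Mcl1 and Bax were the members called higher in injured knockouts than in injured controls. They are the 250 bases before the RefSeq start on GRCm38.p6, 5′ to 3′ on the strand of the gene: chr2:152831729-152831978 (minus strand) for Bcl2l1, chr3:95658471-95658720 (plus strand) for Mcl1 and chr7:45466899-45467148 (minus strand) for Bax. Capitals mark every match, on either strand, to 7 short motifs: STAT (TTCNNNGAA), AP-1 (TGANTCA), the E-box (CACGTG), the GC box (GGGCGG), the CCAAT box (CCAAT), the TATA box (TATAAA) and the p53 half-site.
Bcl2l1: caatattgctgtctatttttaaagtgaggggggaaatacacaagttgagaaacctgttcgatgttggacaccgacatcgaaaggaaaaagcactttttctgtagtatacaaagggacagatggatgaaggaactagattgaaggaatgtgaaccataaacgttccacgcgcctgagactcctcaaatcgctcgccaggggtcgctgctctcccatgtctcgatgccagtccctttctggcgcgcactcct
Mcl1: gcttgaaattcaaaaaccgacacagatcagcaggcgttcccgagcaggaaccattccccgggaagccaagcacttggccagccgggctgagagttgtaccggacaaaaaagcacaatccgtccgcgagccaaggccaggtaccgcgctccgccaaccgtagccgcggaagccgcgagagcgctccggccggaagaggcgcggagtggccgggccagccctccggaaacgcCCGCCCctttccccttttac
Bax: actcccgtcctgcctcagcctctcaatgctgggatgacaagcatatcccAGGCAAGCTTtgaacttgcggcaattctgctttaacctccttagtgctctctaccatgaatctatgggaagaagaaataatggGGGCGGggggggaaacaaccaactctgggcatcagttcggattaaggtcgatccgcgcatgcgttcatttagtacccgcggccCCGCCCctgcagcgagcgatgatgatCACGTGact
The stretch before Bcl2l1 held none of the 7 motifs and had a GC content of 47.6%. That before Mcl1 held 1 GC box, which ended 15 bases before the start, and had a GC content of 64.4%. That before Bax held 2 GC boxes, an E-box between 9 and 4 bases before the start and a p53 half-site between 201 and 192 bases before it, none of which overlapped another. Of 32851 RefSeq promoter stretches of the same length, 32.7% held a GC box, 33.8% the CCAAT box, 12.4% the TATA box, 7.13% a p53 half-site, 7.02% the STAT motif, 6.75% the AP-1 motif and 6.02% the E-box. A match describes the letters and is not a site of binding. RefSeq windows were found for 8 of the 10 members, and Bcl2l1 has 3 of them, of which the one nearest to the GENCODE start is shown.

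In sham control kidneys Mcl1 was the most abundant member and Bbc3 the least. Per kilobase of exon, Mcl1 averaged 42.1 CPM in Ctrl, followed by Bid at 18.1, Bcl2l1 at 16.1, Pmaip1 at 8.58, Bak1 at 6.12, Bik at 5.19, Bax at 5.13, Bcl2 at 2.40, Bcl2l11 at 1.86 and Bbc3 at 0.412 CPM per kb. The ranges of neighbours in this order overlapped for Bak1 and Bik, for Bik and Bax and for Bcl2 and Bcl2l11, and not elsewhere. Bbc3 rested on 11 to 46 counts per library, so its values are the least precise of the 10, and Mcl1 on 2040 to 6063. After injury in the knockout the order changed at the top, where Bcl2l1 at 90.0 and Mcl1 at 88.8 CPM per kb had overlapping ranges and stood far above Bid, next at 14.1.

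**Figure D1:**
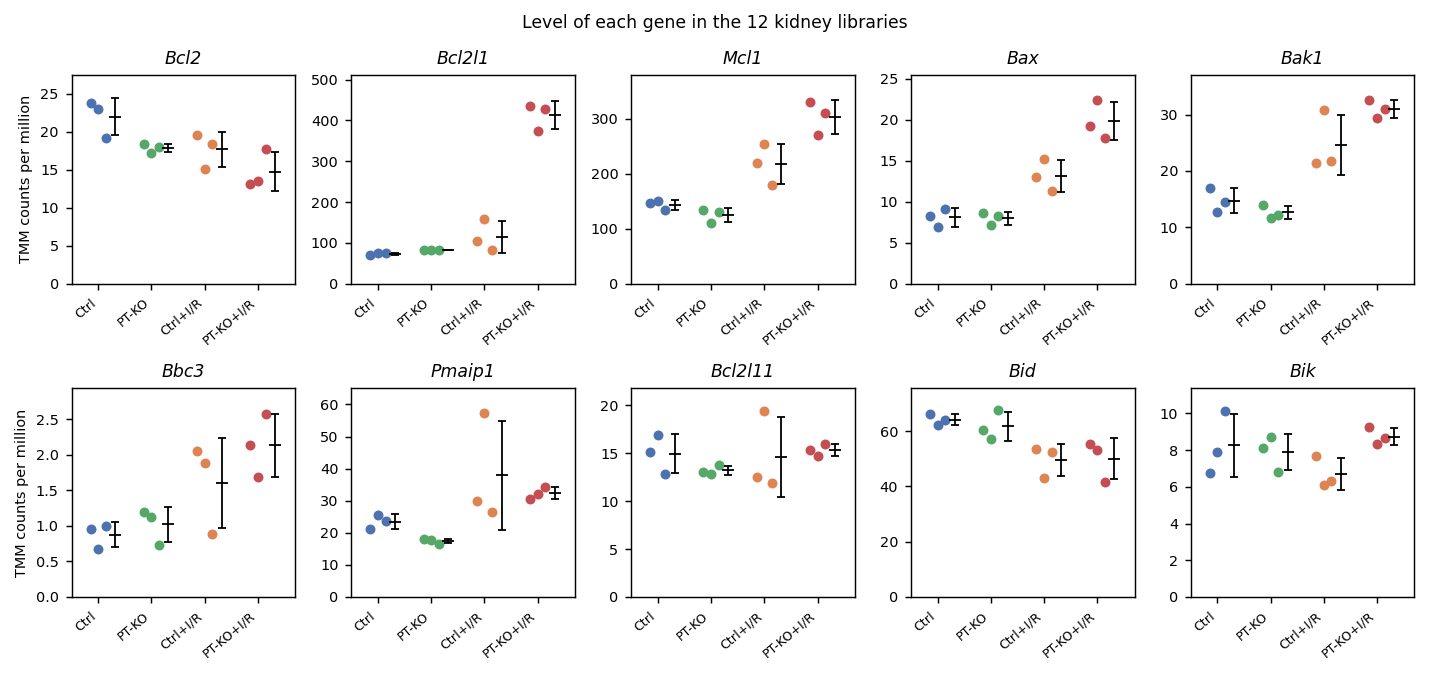
CPM after TMM normalization (y, linear from 0, own scale for each gene) of the 10 BCL2 family genes in Ctrl, PT-KO, Ctrl+I/R and PT-KO+I/R; each point is 1 library and the bar beside it the mean ± SD of 3. Bcl2l1 lay between 71.1 and 158 CPM in the 9 libraries outside PT-KO+I/R and between 373 and 436 CPM within it.

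Injury moved 7 of the 10 members in the knockout and 3 in the control. Between PT-KO+I/R and PT-KO, 6 members rose (Bcl2l1, Mcl1, Bax, Bak1, Bbc3 and Pmaip1), where 32.9% of all 15155 genes tested were called higher, and 1 fell (Bid), where 32.7% were called lower, at an edgeR quasi-likelihood adjusted p under 0.05. In controls, Mcl1, Bax and Bak1 rose between Ctrl and Ctrl+I/R, where 11.4% of 15567 genes were called higher, and 0 members fell, where 7.97% were called lower. The 2 groups did not overlap in 8 of 10 members in the knockout, where 70.8% of all genes did not, and in 6 of 10 in the controls, where 43.7% did not. By a call on fold and p, a log2 fold change beyond 1 in either direction at an unadjusted p under 0.01, as the study used between its injured groups, 4 members passed in the knockout (29.1% of all genes) and 0 in the controls (9.15%). At an unadjusted p under 0.05, as the study used for controls after injury, 6 members passed in the controls (37.9% of all genes). With total counts in place of TMM, 2346 genes were called higher and 766 lower in the controls, against 1778 and 1241, with the same 3 members among them. The control count was not stable to leaving out a library. It was 0 without Ctrl library 1, Ctrl library 2, Ctrl+I/R library 1 or Ctrl+I/R library 2. Without Ctrl library 3 it was 1, and without Ctrl+I/R library 4 it was 5. Calls over all genes moved too, to 379, 413, 833, 1635, 2227 and 4061 in the same order, against 3019 with all libraries. The log2 fold changes in these 6 fits were 0.50 to 0.72 for Mcl1, 0.61 to 0.82 for Bax and 0.57 to 0.87 for Bak1, against 0.60, 0.71 and 0.75 with all libraries. The count was 0 in a fit without both female Ctrl libraries, an alternative chosen after the data had been seen, with Mcl1 at 0.69, Bax at 0.50 and Bak1 at 0.75. It was 1 (Mcl1, 0.71) with sex as a covariate, where Bax was at 0.53 and Bak1 at 0.77. Over all genes, that fit called 2029 of 16168.

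Injured knockout kidneys differed from injured controls in 3 members, each higher: Bcl2l1, Mcl1 and Bax. Among all 15281 genes tested 22.5% were called higher and 24.4% lower, against 3 and 0 of the 10 members. The groups did not overlap in 4 of 10 members and in 58.7% of all genes, and 1 member (Bcl2l1) passed the call on fold and p, as did 18.3% of all genes. With total counts in place of TMM, 1978 genes were called higher and 5080 lower, against 3444 and 3725, and among the members Bcl2l1 remained called, Bcl2 was called lower (log2 fold change -0.47, edgeR adjusted p = 0.0399), and Mcl1 (0.27, adjusted p = 0.198) and Bax (0.38, adjusted p = 0.0993) were not called. Without Ctrl+I/R library 1 the number of called members was 1, Bcl2l1, and 5475 genes were called. With the library number as a replicate block it was also 1, Bcl2l1, and 1683 genes were called. The main fit called 7169 genes. All 6 libraries of this comparison are male.

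Without injury no member was called between PT-KO and Ctrl. The edgeR test called 0% of 15291 genes higher and 0% lower. DESeq2 called 440 of 15640 genes and 0 of the 10 members. With the library number as a replicate block, edgeR called 1378 of 15291 genes and 0 members. In the main edgeR fit 2 members had an unadjusted p under 0.05, as did 16.8% of all genes. These were Pmaip1, lower by 0.43 on the log2 scale (95% interval -0.67 to -0.19, adjusted p = 0.188), and Bcl2, lower by 0.30 (-0.55 to -0.05, adjusted p = 0.252). The groups did not overlap in 3 of 10 members and in 21.0% of all genes, and 0 members and 1.42% of all genes passed the call on fold and p. When Ctrl library 3, the male one, was left out, 1930 of 15597 genes were called in this comparison. Bcl2 was among them (log2 fold change -0.39, edgeR adjusted p = 0.0404). It was at -0.11 without both female Ctrl libraries and at -0.10 with sex as a covariate (adjusted p = 1 in each).

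**Figure D2:**
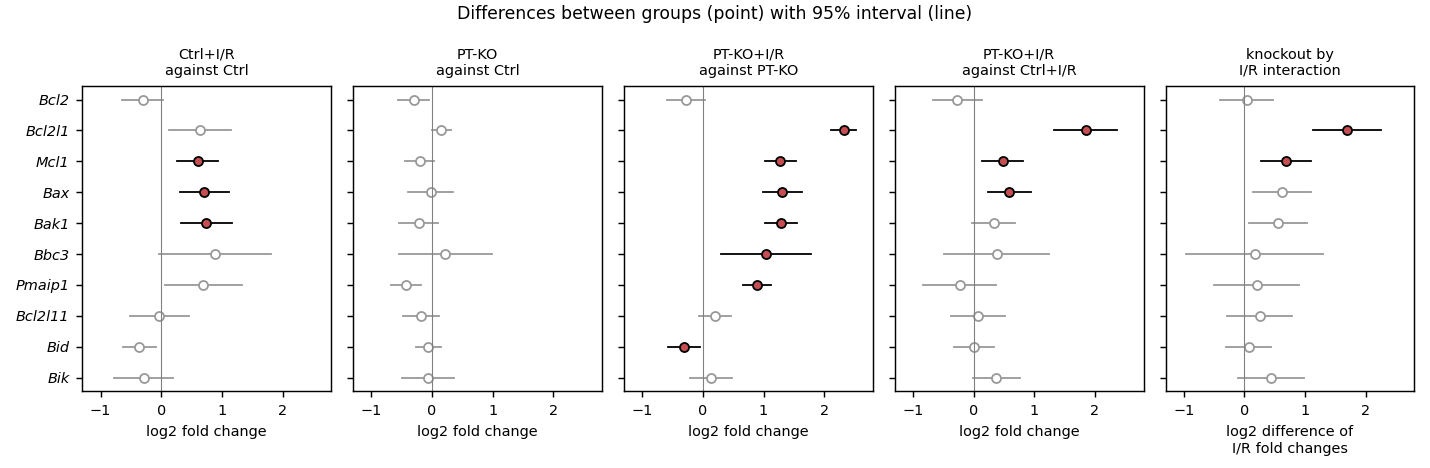
Log2 fold change (x) of each member in 4 comparisons and, at the right, the difference between the I/R fold changes of PT-KO and Ctrl; lines are 95% intervals and filled points passed an edgeR adjusted p under 0.05. Bcl2l1 lies farthest to the right in the 3 panels that include PT-KO+I/R, at 2.32, 1.84 and 1.69.

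Bcl2l1, which encodes BCL-xL, showed the largest injury difference of the 10 members in the knockout. Its levels were 71.1, 75.7 and 74.2 CPM in Ctrl, 81.8, 82.8 and 81.8 in sham knockouts, 104, 158 and 82.1 in injured controls and 436, 373 and 429 in injured knockouts. The sham libraries lay close together, the Ctrl+I/R libraries ran from just above Ctrl to well above it, and every PT-KO+I/R library stood above all others. Bcl2l1 rose 4.999-fold between PT-KO and PT-KO+I/R (log2 difference 2.32, SE 0.09, adjusted p = 5.8e-08 in edgeR) and was 3.59-fold higher in injured knockouts than in injured controls (1.84, SE 0.22, adjusted p = 0.000713). In controls the same contrast gave a log2 fold change of 0.64 (95% interval 0.14 to 1.15, adjusted p = 0.0742) that was not called, although the 3 libraries of each group did not overlap. DESeq2 called it there (adjusted p = 0.0346), and so did edgeR once Ctrl+I/R library 4, the injured control of lowest Bcl2l1, was left out (0.83, adjusted p = 0.0188). It was also called in edgeR with no low-count filter (0.0381), in 1 fit to all 12 libraries (0.0204) and with the library number as a replicate block (0.0227). It was not called with total counts (0.0519), at least 10 counts in every library (0.0713) or sex as a covariate (0.144). Without Ctrl+I/R library 2, the injured control of highest Bcl2l1, the difference was 0.36 (adjusted p = 0.127). The exact permutation test on 3 against 3 libraries gives 0.1 for each of these non-overlapping contrasts, the smallest p it allows.

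Mcl1, a short-lived anti-apoptotic protein, rose after injury in both genotypes. It was at 147, 151 and 133 CPM in Ctrl, 134, 110 and 130 in sham knockouts, 220, 253 and 179 in injured controls and 331, 270 and 310 in injured knockouts. The sham groups overlapped, and each injured group stood above the shams and apart from the other injured group. The increase was 1.52-fold in controls (log2 difference 0.60, SE 0.14, adjusted p = 0.0308 in edgeR) and 2.42-fold in the knockout (1.27, SE 0.11, adjusted p = 6.3e-06). PT-KO+I/R exceeded Ctrl+I/R by 1.39-fold (0.48, SE 0.15, adjusted p = 0.0302), a call that was lost without Ctrl+I/R library 1 (adjusted p = 0.0834) or 4 (0.0780), and without PT-KO+I/R library 2 (0.0835) or 4 (0.0896). The call in controls remained in 1 of 6 fits that left out a library, the one without Ctrl+I/R library 4.

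Bcl2 itself did not share the rise of its relatives. It was at 23.8, 22.9 and 19.2 CPM in Ctrl, 18.4, 17.2 and 17.98 in sham knockouts, 19.5, 15.1 and 18.4 in injured controls and 13.1, 13.5 and 17.7 in injured knockouts. The highest values were those of the 2 female Ctrl libraries, and the male one lay within the range of Ctrl+I/R. The injury difference was a log2 fold change of -0.31 in controls (95% interval -0.64 to 0.03) and -0.28 in the knockout (-0.60 to 0.03), with edgeR adjusted p of 0.163 and 0.104. Without PT-KO+I/R library 4, the knockout difference was called (-0.43, adjusted p = 0.0194).

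The pore-forming effectors Bax and Bak1 rose together after injury. Bax was at 8.24, 6.85 and 9.14 CPM in Ctrl, 8.58, 7.11 and 8.22 in sham knockouts, 13.0, 15.1 and 11.3 in injured controls and 19.3, 22.4 and 17.8 in injured knockouts. The sham groups coincided, and the injured groups stood above them without overlapping each other. Bax rose 1.63-fold in controls (log2 difference 0.71, SE 0.17, adjusted p = 0.0333 in edgeR) and 2.48-fold in the knockout (1.31, SE 0.14, adjusted p = 2.8e-05), and was 1.502-fold higher in injured knockouts than in injured controls (0.59, SE 0.15, adjusted p = 0.0152). The last call was lost without Ctrl+I/R library 1 (adjusted p = 0.0550) or PT-KO+I/R library 3 (0.0608), and the call in controls was kept only without Ctrl library 3 or Ctrl+I/R library 4.

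Bak1 was at 17.0, 12.7 and 14.5 CPM in Ctrl, 13.9, 11.7 and 12.3 in sham knockouts, 21.4, 30.8 and 21.7 in injured controls and 32.7, 29.5 and 31.0 in injured knockouts. Ctrl+I/R library 2 lay among the PT-KO+I/R libraries and the other two Ctrl+I/R libraries below them. The increase was 1.68-fold in controls (log2 difference 0.75, SE 0.18, adjusted p = 0.0306 in edgeR) and 2.44-fold in the knockout (1.29, SE 0.11, adjusted p = 6.5e-06). Between the injured groups Bak1 differed by 0.33 (95% interval -0.02 to 0.68, adjusted p = 0.106), and by 0.51 without Ctrl+I/R library 2 (adjusted p = 0.00998). In controls the Bak1 call held in 1 of 6 fits that left out a library, the one without Ctrl+I/R library 4. It was lost in edgeR with the library number as a replicate block (0.81, adjusted p = 0.0604) and with sex as a covariate (0.77, 0.0528). DESeq2, total counts, both alternatives of the low-count filter and 1 fit to all 12 libraries kept it. Bak1 shares 437 exonic bases with Ggnbp1 on the other strand, and whether counting used the strand is not given in the sources used here.

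The 5 BH3-only genes did not move as a block. Pmaip1, which encodes NOXA, a binder of MCL-1, was at 21.1, 25.6 and 23.6 CPM in Ctrl, 17.9, 17.7 and 16.6 in sham knockouts, 29.9, 57.2 and 26.5 in injured controls and 30.5, 32.1 and 34.4 in injured knockouts. One library, Ctrl+I/R library 2, was far above all others. Pmaip1 rose 1.85-fold in the knockout (log2 difference 0.89, SE 0.10, adjusted p = 3.9e-05 in edgeR), and the control difference of 0.70 (95% interval 0.05 to 1.34, adjusted p = 0.108) was not called. That difference was 0.29 without Ctrl+I/R library 2 (adjusted p = 0.195), while leaving out Ctrl+I/R library 4 in its place gave 0.89 and a call (adjusted p = 0.0431). Between the injured groups it differed by -0.23 (-0.83 to 0.37, adjusted p = 0.498), and by 0.18 in the other direction without Ctrl+I/R library 2.

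Bbc3, which encodes the p53 target PUMA, was at 0.96, 0.67 and 0.998 CPM in Ctrl, 1.20, 1.13 and 0.74 in sham knockouts, 2.05, 1.88 and 0.89 in injured controls and 2.14, 1.69 and 2.58 in injured knockouts. Ctrl+I/R library 4 stayed within the sham range. Bbc3 rose 2.06-fold in the knockout (log2 fold change 1.04, SE 0.33, edgeR adjusted p = 0.0182), a call that was lost in DESeq2 (adjusted p = 0.0728) and without PT-KO library 4 (0.0757) or PT-KO+I/R library 4 (0.0799). In controls the difference was 0.89 (95% interval -0.04 to 1.81, adjusted p = 0.146).

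Bid, which links death receptor signalling to mitochondria once caspase-8 has cut it, went the other way. It was at 66.2, 62.3 and 64.2 CPM in Ctrl, 60.4, 57.2 and 67.6 in sham knockouts, 53.5, 43.0 and 52.4 in injured controls and 55.3, 53.3 and 41.7 in injured knockouts. Every injured library was below every sham library. Bid fell in the knockout to 0.807 of the sham level (log2 fold change -0.31, SE 0.12, edgeR adjusted p = 0.0401), a call that was kept in 2 of 6 fits leaving out a library: it was lost without PT-KO library 1 (adjusted p = 0.0698) or 4 (0.144) and without PT-KO+I/R library 3 (0.0530) or 4 (0.155). It was lost as well in DESeq2 (0.0505), with total count normalization (0.104), with the replicate block (0.0824) and in the fit without both female Ctrl libraries (0.0523). In controls the difference was -0.36 (95% interval -0.63 to -0.09, adjusted p = 0.0635), and between the injured groups it was 0.00 (-0.32 to 0.33, adjusted p = 0.981). Of its exonic bases, 628 (17.7%) are shared with Bcl2l13 on the other strand, which had 13759 counts over all libraries against 11955 for Bid.

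Bcl2l11 and Bik were called in none of the comparisons. Bcl2l11, which encodes BIM, was at 15.1, 16.9 and 12.8 CPM in Ctrl, 13.1, 12.8 and 13.7 in sham knockouts, 12.5, 19.4 and 11.9 in injured controls and 15.3, 14.7 and 16.0 in injured knockouts. Its injury difference was -0.03 in controls (95% interval -0.51 to 0.45) and 0.21 in the knockout (-0.06 to 0.47) on the log2 scale, with edgeR adjusted p of 0.928 and 0.145. Ctrl+I/R library 2 was the highest of the 12 for Bcl2l11, as it was among controls for Bcl2l1, Mcl1, Bax, Bak1 and Pmaip1. Bik, a BH3-only protein of the endoplasmic reticulum, was at 6.74, 7.89 and 10.1 CPM in Ctrl, 8.14, 8.72 and 6.81 in sham knockouts, 7.68, 6.11 and 6.32 in injured controls and 9.24, 8.32 and 8.64 in injured knockouts. The injured groups did not overlap, with Bik higher in PT-KO+I/R by 0.37 (95% interval -0.02 to 0.76, adjusted p = 0.103).

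The injury response differed between the genotypes for 2 members. In the knockout by I/R interaction, fitted to all 12 libraries, the log2 fold change after injury was larger in PT-KO than in Ctrl by 1.69 for Bcl2l1 (SE 0.26, edgeR adjusted p = 0.000722) and by 0.68 for Mcl1 (SE 0.19, adjusted p = 0.0187), and 0 members had a smaller one that was called. Among 16168 genes tested 14.3% had a called positive and 16.4% a called negative interaction, and 14.5% passed the call on fold and p, as did 1 member. With total counts the split of called genes was 1591 positive and 2997 negative, against 2305 and 2648, and Mcl1 was not called (0.59, adjusted p = 0.0586). Bax (0.61, 95% interval 0.14 to 1.09, adjusted p = 0.0517) and Bak1 (0.55, 0.08 to 1.03, adjusted p = 0.0726) were not called. The other 6 members had differences between 0.04 and 0.44, each with an interval that includes 0. Bcl2l1 was called in all 12 fits that left out a library, at 1.49 to 1.98, and in the fit without both female Ctrl libraries. Mcl1 was called in the same 12 fits but not without both female libraries (0.57, adjusted p = 0.135) or with sex as a covariate (0.58, adjusted p = 0.0967). Leaving out Ctrl+I/R library 2 raised the number of called members to 5, with Bax, Bak1 and Pmaip1 added. That fit called 5509 of 16580 genes, against 4953 of 16168 with all libraries.

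Summed over the 10 genes, the level per kilobase was higher after injury, and the anti-apoptotic genes made up most of the increase. The summed level was 106 ± 1.48 CPM per kb in Ctrl, 97.5 ± 5.13 in sham knockouts, 144 ± 27.2 in injured controls and 240 ± 16.1 in injured knockouts (SD, n = 3). Bcl2, Bcl2l1 and Mcl1 made up 57.1% ± 2.03 of this sum in Ctrl, 57.8% ± 0.84 in sham knockouts, 62.8% ± 1.68 in injured controls and 75.0% ± 2.12 in injured knockouts. BH3-only genes made up 32.2% ± 1.41, 31.7% ± 1.22, 24.2% ± 1.16 and 14.3% ± 1.06 in the same order of groups, while Bax and Bak1 stayed between 8.98% and 13.6% in every library. The summed level of the BH3-only genes was 34.1 ± 1.13 CPM per kb in Ctrl, 30.8 ± 0.627 in sham knockouts, 34.6 ± 5.06 in injured controls and 34.4 ± 1.28 in injured knockouts (SD, n = 3), so their lower share went with a larger total. Bcl2l1 alone made up 14.6 to 19.9% of the sum in the 9 libraries outside PT-KO+I/R and 36.5 to 38.4% within it.

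Ratios between members, chosen after their values had been seen and given with no test, differed by pair. Per kilobase, Bcl2l1 stood at 5.97, 6.59 and 7.72 times Bcl2 in Ctrl, 8.89, 9.60 and 9.08 in sham knockouts, 10.6, 20.9 and 8.91 in injured controls and 66.5, 55.2 and 48.5 in injured knockouts. The ratio of Bax to Bcl2, often quoted as a measure of apoptotic tendency, was 1.74 to 2.77 in Ctrl, 2.40 to 2.72 in sham knockouts, 3.55 to 5.83 in injured controls and 5.85 to 9.65 in injured knockouts. Set against Bcl2l1, PT-KO+I/R moved from the highest group to the lowest: Bax was at 0.263 to 0.359 of Bcl2l1 in Ctrl, 0.250 to 0.305 in sham knockouts, 0.279 to 0.399 in injured controls and 0.121 to 0.175 in injured knockouts. Ctrl, PT-KO and Ctrl+I/R had overlapping ranges in the ratio of Bax to Bcl2l1. Bak1 kept to 0.119 to 0.172 of Mcl1 in all 12 libraries.

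**Figure D3:**
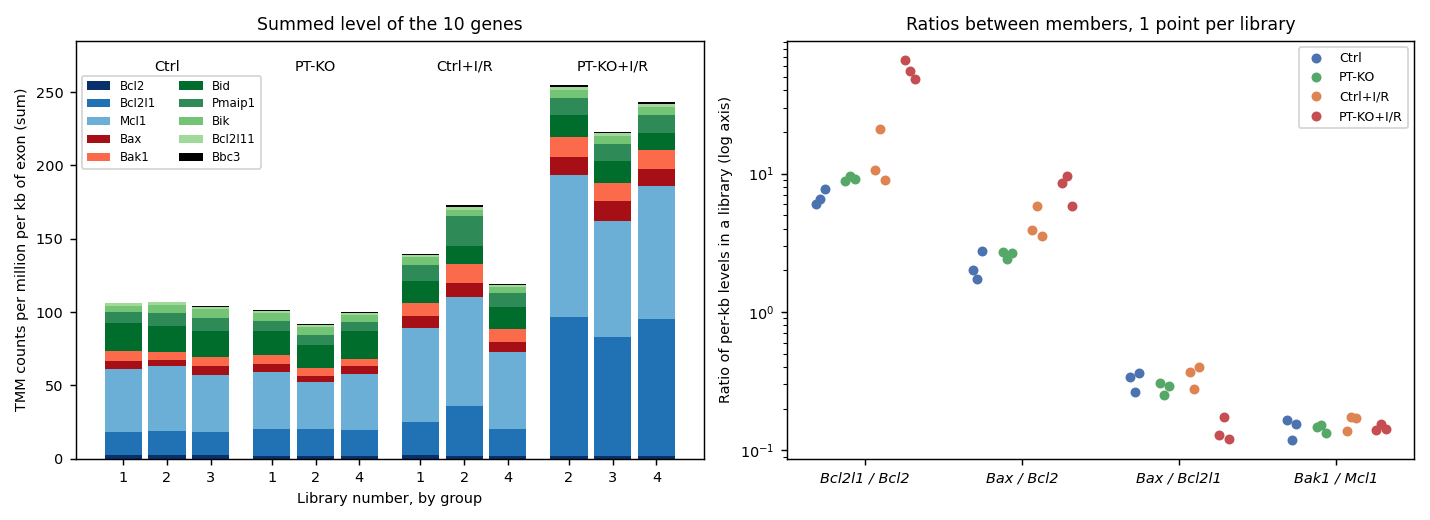
Left, summed CPM per kb of exon of the 10 genes in each library (bars, linear from 0, 1 colour per gene, blue for anti-apoptotic, red for effectors, green and black for BH3-only). Right, ratios of per-kb levels within a library on a log axis, 1 point per library; in PT-KO+I/R Bax over Bcl2 is the highest of the 4 groups and Bax over Bcl2l1 the lowest.

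Of 15 other genes of the family, 9 or 10 could be tested in each comparison. Their median log2 fold change was -0.15 in controls after injury and 0.10 in the knockout, against -0.01 and 0.01 over all genes tested. Bok, an effector that does not need BH3-only proteins, rose in both genotypes (0.99, adjusted p = 0.0336, and 0.86, adjusted p = 0.000152) and was higher in injured knockouts than in injured controls (0.75, adjusted p = 0.0181). A difference of 0.88 stood between PT-KO and Ctrl without injury, where the groups did not overlap but the gene was not called (adjusted p = 0.183), and the interaction for Bok was -0.13 (adjusted p = 0.759). Bmf, a BH3-only gene, fell in controls by 1.30 (adjusted p = 0.0303), was at 0.13 in the knockout (adjusted p = 0.647), and was higher by 1.25 in injured knockouts than in injured controls (adjusted p = 0.00792). Between the injured groups 5 of 9 were called higher and 0 lower, where 22.5% and 24.4% of all genes were. Bcl2a1a, Bcl2a1b and Bcl2a1d, anti-apoptotic genes of leukocytes that are near-identical copies and may share reads, were highest in Ctrl+I/R, where Bcl2a1d reached 1.70 CPM, and at most 0.490 CPM in PT-KO+I/R.

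Genes downstream and upstream of the family were called after injury in both genotypes, where of all genes 11.4% rose and 7.97% fell in controls, and 32.9% rose and 32.7% fell in the knockout. Of 15 genes of the apoptosome, the caspases and their inhibitors, 3 rose and 0 fell in Ctrl+I/R against Ctrl, and 6 rose and 4 fell in PT-KO+I/R against PT-KO, with medians of 0.13 and -0.14. Apaf1, the scaffold that binds cytochrome c, rose in both (0.82, adjusted p = 0.0337, and 1.04, adjusted p = 0.00107), as did the inhibitor of apoptosis Birc3 (1.37, adjusted p = 0.0252, and 2.32, adjusted p = 1.2e-06). In the death receptor list 3 of 12 rose and 2 fell in controls, and 6 of 11 rose and 3 fell in the knockout, with medians of 0.24 and 0.40. Tnfrsf1a, the receptor of TNF, rose in both (1.06, adjusted p = 0.0248, and 1.82, adjusted p = 1.5e-07), and Tnfsf10, the ligand TRAIL, fell in both (-0.72, adjusted p = 0.0410, and -4.10, adjusted p = 2.3e-07). In the list of upstream regulators 5 of 11 rose and 2 fell in controls, and 6 rose and 2 fell in the knockout, with medians of 0.39 and 0.43. Cdkn1a, the p53 target p21, rose in both (2.30, adjusted p = 0.0131, and 6.24, adjusted p = 4.4e-08), and Atf4, a transcription factor of the integrated stress response, rose in both as well (0.71, adjusted p = 0.0199, and 1.92, adjusted p = 1.4e-07). Other genes went apart: E2f1, a factor of cell cycle entry, rose in controls (1.78, adjusted p = 0.0103) and fell in the knockout (-1.59, adjusted p = 0.00205), and Birc5, the survivin gene, rose in controls (1.81, adjusted p = 0.00632) and was at -0.35 in the knockout (adjusted p = 0.449). All of these are edgeR log2 fold changes.

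**Figure D4:**
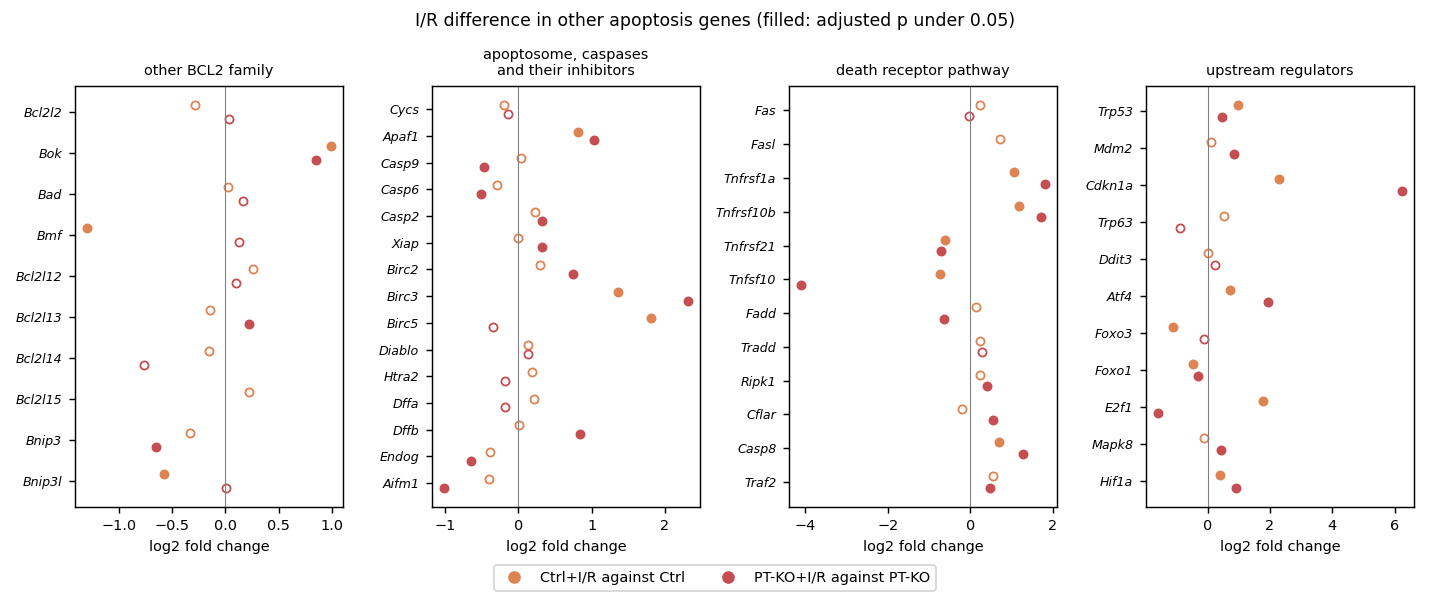
Log2 fold change after injury (x) of other apoptosis genes in 4 lists, orange for Ctrl+I/R against Ctrl and red for PT-KO+I/R against PT-KO; filled points passed an edgeR adjusted p under 0.05 and open ones did not. Cdkn1a at 6.24 and Tnfsf10 at -4.10 in the knockout are the extremes.

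Cell type markers moved with the same libraries. The summed level of 10 proximal tubule markers was 4213 to 9730 CPM in injured controls and 2869 to 3460 in injured knockouts, none at 0, and 4 and 10 of the 10 fell after injury in controls and knockouts. The sum of 6 markers of injured proximal tubule, such as Havcr1, was 210 to 304 CPM in Ctrl, 212 to 251 in sham knockouts, 1776 to 5232 in injured controls and 6174 to 7805 in injured knockouts, and all 6 rose in both genotypes. Ctrl+I/R library 2 had the lowest proximal tubule and the highest injury sum of its group, and Ctrl+I/R library 4 the reverse, the libraries that also held the highest and the lowest Bcl2l1, Mcl1 and Bax of that group. Other segments were lower too: 6 markers of the loop of Henle and distal tubule summed to 5614 to 7636 CPM in the sham groups, 1666 to 4142 in injured controls and 2222 to 2681 in injured knockouts, and 3 and 6 of them fell in controls and knockouts. The 6 collecting duct markers summed to 368 to 477, 114 to 353 and 137 to 203 CPM, with 2 and 5 that fell, and the 5 podocyte markers to 374 to 626, 358 to 392 and 363 to 419, with 3 and 1 that fell. In whole tissue, fewer cells of a type and less RNA per cell cannot be told apart.

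Among blood cells, 6 macrophage markers summed to 72.8 to 98.4 CPM in the sham groups, 87.8 to 140 in injured controls and 53.8 to 60.8 in injured knockouts, with 1 called higher and 5 lower between the injured groups. The 6 neutrophil markers summed to 1.16 to 1.94 CPM in Ctrl (Ly6g and Mmp8 at 0), 0.920 to 2.52 in PT-KO (Ly6g at 0), 9.11 to 41.1 in Ctrl+I/R and 45.6 to 72.3 in PT-KO+I/R. The 5 markers of all leukocytes summed to 30.5 to 36.6 CPM in Ctrl, 30.2 to 38.5 in sham knockouts, 59.1 to 129 in injured controls and 24.2 to 30.5 in injured knockouts. Of these 5, 1 rose (Cd53, 1.01, adjusted p = 0.0106) and 2 fell in the knockout after injury, and 0 were called higher and 4 lower between the injured groups. Erythroid markers, 5 genes of a lineage known for BCL-xL, summed to 93.9 to 241 CPM in Ctrl, 48.2 to 106 in sham knockouts, 82.1 to 215 in injured controls and 41.9 to 49.5 in injured knockouts. The 7 lymphocyte markers summed to 2.51 to 3.82 CPM in Ctrl, 3.28 to 3.497 in sham knockouts, 1.64 to 7.64 in injured controls and 0.171 to 0.516 in injured knockouts (Cd2 at 0). The 6 endothelial markers summed to 328 to 375 CPM in Ctrl, 337 to 361 in sham knockouts, 324 to 364 in injured controls and 432 to 455 in injured knockouts, with 4 called higher and 1 lower between the injured groups (Tie1, -0.72, adjusted p = 0.00219). Of the 6 injury markers 4 were called higher there and 1 lower (Vcam1, -1.35, adjusted p = 0.00811). These 3 genes were chosen after their values were seen. The part of differing tubule, injury, macrophage, neutrophil, leukocyte, lymphocyte, erythroid and endothelial markers in the differences of Bcl2l1, Mcl1 and Bax was not tested.

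**Figure D5:**
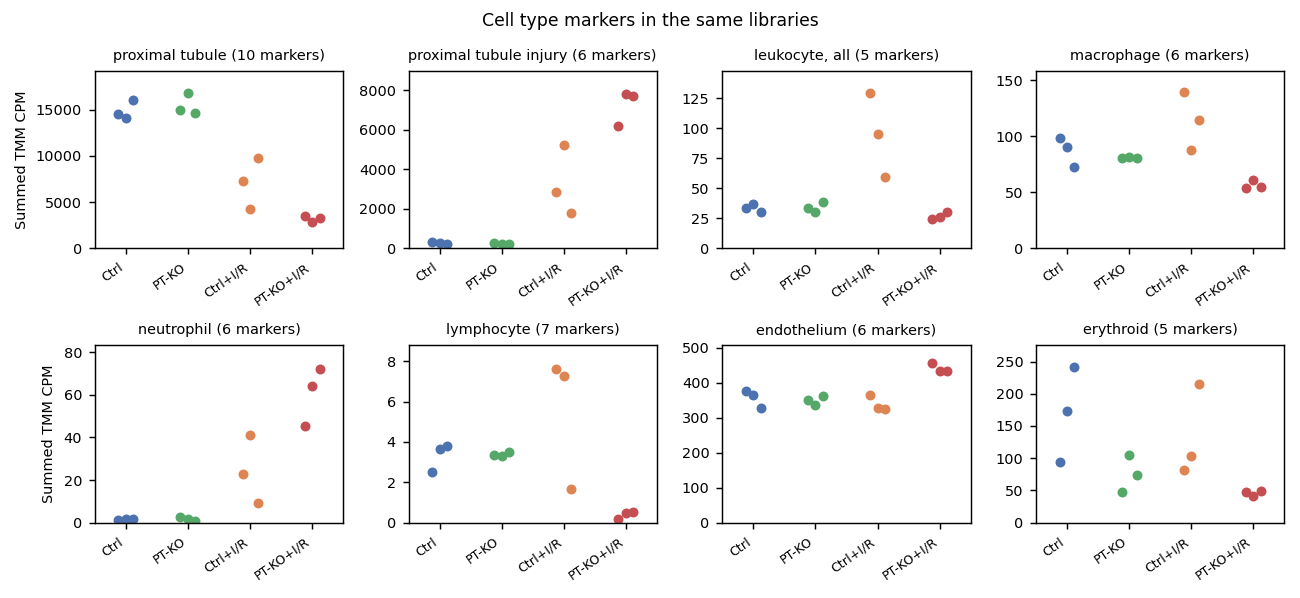
Summed CPM (y, linear from 0) of 8 marker lists in the 12 libraries, 1 point per library, with the number of markers in each title. Proximal tubule sums fall and injury sums rise from the sham groups to Ctrl+I/R and PT-KO+I/R, while the leukocyte sum is highest in Ctrl+I/R.

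For the 6 members whose group means spanned at least 1 on the log2 scale, the genes of most similar pattern were sought by the root mean square (RMS) difference of centred log2 CPM over the 12 libraries. Bcl2l1 was closest to Lrrfip2 (RMS difference 0.14), Pold4 (0.14) and Ccdc149 (0.15). Mcl1 was closest to Cdc42ep1, Tmod3 and Mospd2 (0.12 each), and Bax to Plscr3, Itgb1 and Emd (0.13 each). Bak1 was closest to 1810055G02Rik (0.11), Rcc2 and Nup62 (0.12 each), Pmaip1 to D030056L22Rik (0.16) and Rpsa-ps10 (0.17), and Bbc3 to Tacc2 (0.22), Rhog and Rps13 (0.23 each). No member was among the 3 closest genes of another.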

How the data were processed

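RNA-seq was analysed for 12 libraries of mouse kidney cortex in 4 groups of 3. The authors deposited 1 table of read counts per Ensembl gene, neither normalized nor filtered; the submitters' processing notes name HISAT2 2.0.4 and mm10, while the count program, annotation and strand setting are not given in the sources used here. RNA passed an integrity threshold, and the labels name 2 extraction reagents. Of 55487 identifiers, 55141 had a symbol in GENCODE M21. From the counts, genes were kept by filterByExpr and scaled by TMM. Quasi-likelihood F tests came from edgeR 4.0.16 (R 4.3.3), with 6 libraries per comparison and all 12 for the interaction, and with Benjamini-Hochberg adjustment over all genes tested and calls at 0.05. CPM uses TMM factors of all 12 libraries, and per-kb values divide by the union of GENCODE exons. Exact permutation tests were two-sided. Library totals were 12165089 to 23123693 counts, and the members rested on between 11 (Bbc3) and 8379 (Bcl2l1) counts in a library. Members, gene lists and tests were chosen with earlier results of these data known. Named genes were the 10 members, at most 3 called genes per list and comparison of largest absolute log2 fold change, the marker lists by their sums, the 3 genes of most similar pattern, and Gfer, Xist and 4 Y-linked genes as checks; a gene named in 1 comparison may be given in others, and the Bcl2a1 copies, Cd53, Tie1 and Vcam1 were named after their values were seen. Some genes are not reported here and were left out of the lists and the named genes. Simulated data served to test the methods. The alternatives were sex as a covariate, a replicate block, leaving out each library, a joint fit of all 12 libraries, scaling by total counts, a stricter (10 counts or more throughout) or absent filter on low counts, and DESeq2 1.42.0. Leaving out both female libraries, and calls at an unadjusted p under 0.05 for Ctrl+I/R against Ctrl, were added after the data had been seen.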

Additional observations from a re-analysis of the deposited data

Results flagged for a closer look

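The I/R response differed between the genotypes, by the interaction term of the edgeR fit at an adjusted p under 0.05, for 2 members. In the other apoptosis lists the log2 fold change was larger in PT-KO for 3 and smaller for 0 of 10 genes of the family, for 0 and 2 of 15 in the apoptosome and caspase list, for 3 and 2 of 12 in the death receptor list and for 6 and 1 of 11 upstream regulators, where 14.3% of all genes had a larger and 16.4% a smaller one. At most 3 called genes of each list are named, those of largest absolute difference. The log2 fold change after injury was larger in PT-KO than in Ctrl by 1.69 for Bcl2l1 (adjusted p = 0.000722) and by 0.68 for Mcl1 (adjusted p = 0.0187). Among other BCL2 family genes it was larger by 1.44 for Bmf (adjusted p = 0.0234), 0.59 for Bnip3l (adjusted p = 0.00668) and 0.33 for Bcl2l2 (adjusted p = 0.0472). In the list of the apoptosome, caspases and their inhibitors the difference was -2.15 for Birc5 (adjusted p = 0.00456), the survivin gene that dividing cells express, and -0.61 for Aifm1 (adjusted p = 0.0107). In the death receptor list it was 0.77 for Tnfrsf1a (adjusted p = 0.0457), -0.77 for Fadd (adjusted p = 0.00619) and -3.35 for Tnfsf10 (adjusted p = 6.7e-05). Among upstream regulators it was 3.95 for Cdkn1a (adjusted p = 0.000298), 1.23 for Atf4 (adjusted p = 0.000475) and -3.36 for E2f1 (adjusted p = 0.000317). The Ctrl arm of each holds 2 female libraries and 1 male library, and sex cannot be told apart from other differences among these 3.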

How the results depend on the processing

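For the number of members called in Ctrl+I/R against Ctrl (3), 1 fit to all 12 libraries gave 6, sex as a covariate 1, leaving out both female Ctrl libraries 0, the call by fold and p (a log2 fold change beyond 1 at an unadjusted p under 0.01) 0, and an unadjusted p under 0.05, added after the data had been seen, 6, and leaving out 1 library at a time gave 0 to 5. In PT-KO against Ctrl (0) leaving out 1 library gave 0 to 1. In PT-KO+I/R against PT-KO (7) the call by fold and p gave 4. In the contrast of the injured groups (3) the replicate block gave 1, the call by fold and p 1, and leaving out 1 library 1 to 4. In the interaction (2) total count normalization, sex as a covariate, leaving out both female libraries and the call by fold and p gave 1 each, and leaving out 1 library 2 to 5. The cause was not tested. DESeq2, no low-count filter and at least 10 counts in every library left each of these member counts within 1.5 times of its value above. Calls over all genes moved as well. In Ctrl+I/R against Ctrl there were 3019, against 4938 in 1 fit to all 12 libraries and 2029 with sex as a covariate. In the contrast of the injured groups there were 7169, against 1683 with the replicate block. In the interaction there were 4953, against 4588 with total counts and 3233 with sex as a covariate.

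Bcl2l1 was called in every setting of the 3 comparisons that include PT-KO+I/R. Log2 fold changes that turned in sign were of members not called in those comparisons. In Ctrl+I/R against Ctrl, Bcl2l11 was at 0.086 with total counts, 0.19 with sex as a covariate and 0.17 without the female libraries, and -0.27 to 0.091 leaving out 1 library. In PT-KO against Ctrl, Bcl2l11 was at 0.045 with sex as a covariate and 0.033 without the female libraries; with the replicate block Bax was at 0.051 and Bik at 0.20, and leaving out 1 library gave -0.13 to 0.073 for Bax and -0.20 to 0.11 for Bik. In the contrast of the injured groups, Bcl2l11 was at -0.14 and Bid at -0.19 with total counts, and Bid at -0.0071 with no low-count filter, -0.022 with at least 10 counts in every library and -0.0051 without the female libraries; leaving out 1 library gave -0.43 to 0.18 for Pmaip1, -0.061 to 0.31 for Bcl2l11 and -0.099 to 0.13 for Bid. In the interaction, Bcl2 was at -0.044 with total counts, -0.16 with sex as a covariate and -0.16 without the female libraries, and Bid at -0.013 with total counts; leaving out 1 library gave -0.11 to 0.13 for Bcl2, -0.11 to 0.38 for Bbc3, -0.0022 to 0.61 for Pmaip1 and -0.035 to 0.19 for Bid.

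Total counts in place of TMM moved the median log2 fold change of all genes to 0.11 in Ctrl+I/R against Ctrl, -0.14 in PT-KO against Ctrl, -0.21 in the contrast of the injured groups and -0.10 in the interaction. Libraries of the same number did not deviate together (12 pairs, correlation of deviations -0.19 to 0.18, median -0.02), so the numbers were not taken as a pairing; with the number as a replicate block 4, 0, 6, 1 and 2 members were called in Ctrl+I/R against Ctrl, PT-KO against Ctrl, PT-KO+I/R against PT-KO, the contrast of the injured groups and the interaction, against 3, 0, 7, 3 and 2 without it. Each group has 3 libraries, and leaving out a library leaves 2. Depth is lowest for Bbc3, at 11 to 46 counts a library.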

Other observations

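Other apoptosis genes differed between the injured groups, by edgeR over all genes. In the death receptor list 4 of 11 were called higher in injured knockouts and 2 lower, where 22.5% and 24.4% of all genes were. Tnfsf10 differed by -2.79 (SE 0.30, adjusted p = 0.000452) and Fadd, the adaptor of death receptors, by -0.78 (SE 0.15, adjusted p = 0.00390). Casp8, the initiator caspase of death receptors, stood higher in the injured knockouts than in the injured controls by 0.94 on the log2 scale (SE 0.16, adjusted p = 0.00296), with means of 81.0 ± 12.9 and 42.1 ± 8.14 CPM (SD, n = 3), and its inhibitor Cflar by 0.80 (SE 0.13, adjusted p = 0.00201), at 244 ± 34.2 and 140 ± 3.28 CPM. In the apoptosome and caspase list 3 of 15 were called higher and 3 lower, and among upstream regulators 6 of 11 and 1. Birc5 was lower by 2.04 (SE 0.32, adjusted p = 0.00188), and E2f1, a factor of cell cycle entry, by 3.45 (SE 0.34, adjusted p = 0.000353), while Birc3 was higher by 0.83 (SE 0.28, adjusted p = 0.0390), Cdkn1a by 3.09 (SE 0.33, adjusted p = 0.000452) and Atf4 by 1.20 (SE 0.14, adjusted p = 0.000612).

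Between PT-KO+I/R and PT-KO, Aifm1, which encodes a mitochondrial flavoprotein, fell by 1.01 (SE 0.10, adjusted p = 1e-05), and Bnip3, a mitophagy receptor of the BCL2 family, fell by 0.65 (SE 0.13, adjusted p = 0.00131). In controls after injury Foxo3, a transcription factor that can induce Bcl2l11 and Bbc3, fell by 1.11 (SE 0.19, adjusted p = 0.0142), and Bnip3l fell by 0.57 (SE 0.10, adjusted p = 0.0134).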
